A study of Mus musculus with 6 samples.

Results

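Imprinted genes are transcribed mainly from the copy inherited from 1 parent, and here 41 of them were followed in the liver of adult mice whose mothers had been short of chromium. The genes were taken from a fixed list of symbols. A gene was measured where a probe set, the group of probes that reads a transcript, was annotated to its symbol alone, and the brightest such probe set stood for the gene. This gave 35 of the 41 genes, among 22180 genes measured in the same way. H19, Mirg, Rtl1 and Snrpn had only probe sets that were annotated to several symbols, so no value is given for them, and Zrsr1 and Slc22a3 were not analysed here. Meg3, Rian, Peg3, Usp29 and Gnas had probe sets with several symbols as well as their own, and only their own were used. Of the 35 genes, 18 were classed as paternally expressed and 16 as maternally expressed, with a single class for each gene. Gnas was kept apart because the copy depends on the transcript. For the other genes, the classes do not allow for a copy that differs between tissues or transcripts.

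The liver RNA came from male C57BL offspring at 32 weeks of age, fasted before they were killed. Dams of the CR-CD group were fed a diet reduced in chromium through pregnancy and lactation, and their pups received the control diet from weaning. Dams and pups of the CD-CD group received the control diet throughout. Affymetrix GeneChip Mouse Gene 2.0 ST arrays measured total RNA, 3 arrays per group, and the signal does not separate the parental copies of a gene. The sources do not say whether each array held a separate animal or litter, and every SD, interval and p below treats the arrays as independent samples. Values are log2 signals as the authors normalized them. A difference below is the log2 fold change, the CR-CD mean minus the CD-CD mean, with its standard error (SE) from limma. Array medians ranged from 5.48 to 5.54. The hepatocyte markers Alb, Apoa1, Ttr, Cyp2e1, Serpina1a and Tat were all above background on every array.

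Many imprinted genes act on growth before birth. Paternally expressed genes such as Igf2 tend to promote growth of the fetus, and maternally expressed genes such as Igf2r, Grb10 and Cdkn1c tend to restrain it. In rodents much of this set, Igf2 and H19 in particular, is abundant in fetal liver and is shut down after birth, while other members serve general functions of the cell and stay on. Maternal diet in pregnancy is often studied through these genes because the marks that select the copy are set in the germ line and kept in the embryo.

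Which imprinted genes were still expressed was judged against genes of smell and pheromone receptors, for which no liver transcript is expected. On each array the 95th percentile of 1394 such genes served as background, at 5.37 to 5.52, and their 99th percentile, at 6.16 to 6.35, as a stricter level. Over all genes, 54.2% exceeded the lower level on all 6 arrays. Of the imprinted genes, 21 of 35 (60.0%) did so, which is close to the share of all genes. Of the others, 12 were below it on every array and 2, Dlk1 and Meg3, were above it on 2 of the 6 arrays. At the stricter level 9 of the 35 genes (25.7%) remained, against 36.5% of all genes. The shares were not tested against each other. The 9 genes were Igf2r, Slc22a18, Copg2, Ppp1r9a, Ube3a and H13 of the maternally expressed genes, and Impact, Inpp5f and Peg10 of the paternally expressed genes. At the lower level, 9 of 16 maternally expressed genes and 11 of 18 paternally expressed genes were above background.

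**Figure D1:**
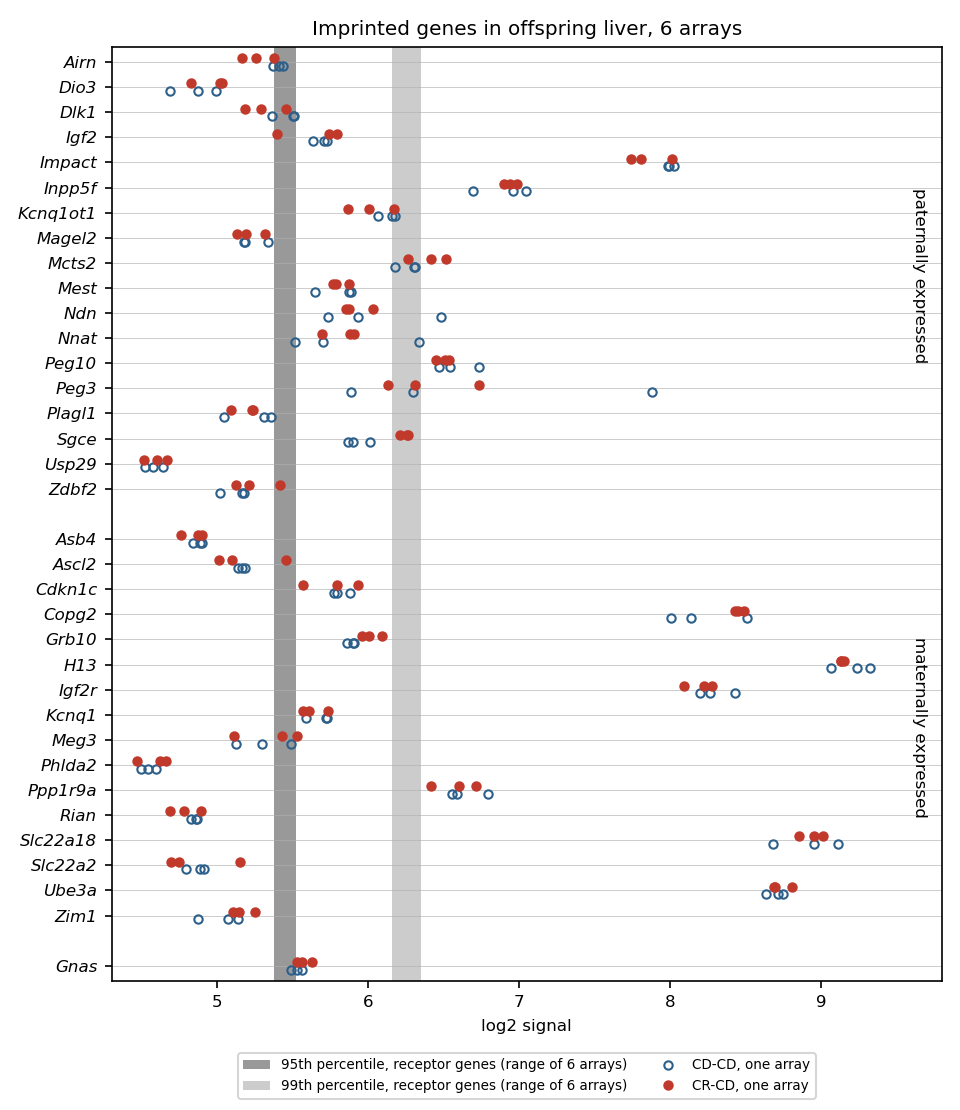
Log2 signal (x axis) of the 35 measured imprinted genes (rows, in alphabetical order within each class of expressed copy), with 1 point per array, filled for CR-CD and open for CD-CD. The grey bands mark the range over the 6 arrays of the 95th and the 99th percentile of the receptor genes. Signals of H13, Slc22a18, Ube3a, Copg2 and Igf2r lie well to the right of both bands, and filled and open points overlap for every gene except Sgce and Grb10.

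None of the 35 imprinted genes passed the test between the groups. In limma with Benjamini-Hochberg adjustment over all 22180 genes, 0 of 35 had an adjusted p under 0.05, where 1.48% of all genes did. That share depends on probe sets with values of more decimals than the rest, described below. No imprinted gene had such a probe set, and without them 0 of 21878 genes passed. At the thresholds of the methods, a fold change of at least 1.5 with an unadjusted p of at most 0.05, 0 of 35 passed against 1.67% of all genes. At an unadjusted p under 0.05 there was 1 imprinted gene, Sgce, where 6.38% of all genes reached that level, and 2 genes by the methods' t-test, which also gave 0 genes after adjustment. The fold changes themselves were small. The log2 fold changes ran from -0.30 for Peg3 to 0.32 for Sgce, and the 95% interval of each gene lay within a 1.5-fold change either way in 34 of 35 genes, Peg3 being the exception. Among all genes 90.6% had an interval that narrow. Of the 21 imprinted genes above background on all arrays, 20 had one. For genes below background, a narrow interval does not tell whether a transcript changed. The same limit applies in part to genes just above background, and 9 of the 21 exceeded the stricter level on all arrays.

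Both classes of expressed copy had a median near 0. The median log2 fold change was -0.03 over the 18 paternally expressed genes, of which 7 were higher and 11 lower in CR-CD on average, and 0.01 over the 16 maternally expressed genes, of which 8 were higher and 8 lower. The median of all genes was 0.0017. Over genes above background on all arrays, the median was -0.048 for 11 paternally expressed genes and -0.044 for 9 maternally expressed genes. With single arrays left out, the paternal median ranged from -0.071 to 0.020 and the maternal median from -0.015 to 0.024, so both could take either sign. These are descriptions of the lists, with no test.

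**Figure D2:**
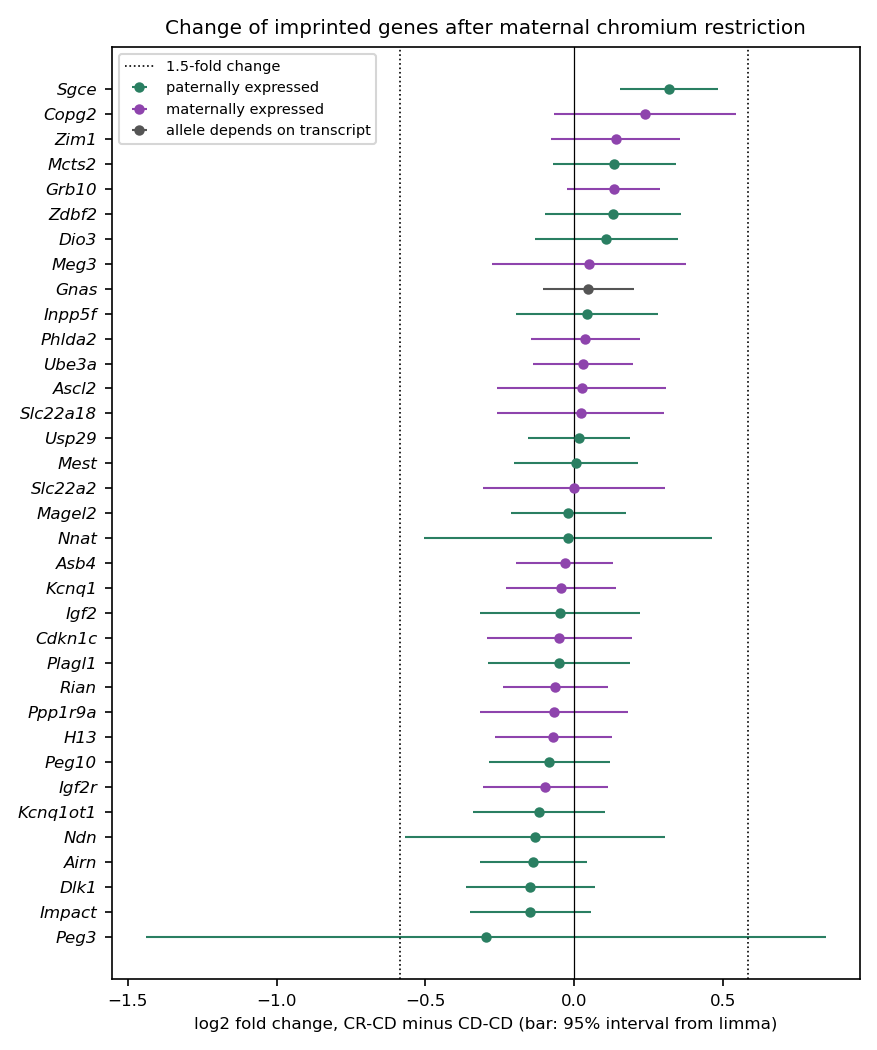
Log2 fold change of each imprinted gene in CR-CD minus CD-CD (x axis, 3 arrays per group) with its 95% interval from limma, ordered by size and coloured by the expressed copy. Dotted lines mark a 1.5-fold change, which only the interval of Peg3 crosses, and the colours are mixed along the order.

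Sgce was the gene with the clearest separation of the groups. It encodes epsilon-sarcoglycan, a membrane glycoprotein, and is expressed from the paternal copy. The signal was 6.26, 6.21 and 6.25 in the CR-CD arrays and 6.01, 5.90 and 5.86 in the CD-CD arrays. The lowest CR-CD array lay above the highest CD-CD array. The means were 6.24 ± 0.03 and 5.92 ± 0.08 (SD, n = 3 per group), which is a difference of 0.32 (SE 0.07, 95% interval 0.15 to 0.48), or 1.25-fold. The adjusted p from limma was 0.158, and it ranged from 0.119 to 0.952 over the other ways of processing, so the difference did not pass in any of them. Peg10, a paternally expressed gene derived from a retrotransposon that neighbours Sgce, read 6.53, 6.45 and 6.51 in CR-CD and 6.54, 6.73 and 6.47 in CD-CD, with a difference of -0.08 (SE 0.09). The groups overlapped for Peg10.

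Grb10 was the only other gene of the 35 without overlap, and 11.4% of all genes had no overlap between the groups. Its product binds the receptors for insulin and IGF1 and restrains their signal. It read 6.01, 5.96 and 6.09 in CR-CD (6.02 ± 0.07, SD, n = 3) against 5.90, 5.86 and 5.90 in CD-CD (5.89 ± 0.02, SD, n = 3). The difference was 0.13 (SE 0.07, 95% interval -0.03 to 0.29, limma adjusted p = 0.833). All 4 macrophage markers had a higher mean in CR-CD, 1 of them without overlap between the groups, and 0 of 4 passed the adjusted p. The summed signal of Adgre1, Cd68, Clec4f and Ptprc, all above background, was 10.2 to 10.7 in CR-CD and 9.59 to 10.0 in CD-CD on the log2 scale, and Clec4f, a Kupffer cell lectin, had a difference of 0.55 (limma adjusted p = 0.357). The summed signals of the hepatocyte, endothelial, stellate or fibroblast, bile duct, adipocyte and pancreas markers overlapped between the groups. All 3 bile duct markers also had a higher mean in CR-CD, 1 of them without overlap, and 0 passed the adjusted p. Of these 3, 1 was above background on all arrays. The part of macrophages in the values of Sgce and Grb10 was not tested. In whole liver a change in the number of a cell type and a change in RNA per cell cannot be told apart.

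In the growth factor branch, Igf2 read 5.39, 5.79 and 5.74 in CR-CD and 5.63, 5.70 and 5.73 in CD-CD, above background on all arrays but below the stricter level on each. Group means were 5.64 ± 0.22 and 5.69 ± 0.05 (SD, n = 3 each). The difference was -0.05 (SE 0.11, 95% interval -0.32 to 0.22, limma adjusted p = 0.999), and without CR-CD replicate 1, the lowest array, it was 0.08. Igf2r, the receptor that carries IGF2 to the lysosome, was well above background. It read 8.27, 8.23 and 8.09 in CR-CD and 8.20, 8.26 and 8.43 in CD-CD, with means of 8.20 ± 0.09 and 8.30 ± 0.12 (SD, n = 3 each) and a difference of -0.10 (SE 0.09, 95% interval -0.31 to 0.11, limma adjusted p = 0.947). Neither the ligand nor its receptor differed beyond the spread of the arrays. Dlk1, a membrane protein that holds back fat cell formation, read 5.18, 5.29 and 5.45 in CR-CD against 5.50, 5.50 and 5.36 in CD-CD. The means were 5.31 ± 0.14 and 5.46 ± 0.08 (SD, n = 3 each), a difference of -0.15 (SE 0.09, 95% interval -0.36 to 0.07, limma adjusted p = 0.889). Phlda2, which limits growth of the placenta, stayed below background between 4.46 and 4.66.

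Of 4 measured noncoding RNAs, only Kcnq1ot1 was above background on all arrays. Airn, which silences Igf2r on the paternal chromosome, read 5.16, 5.26 and 5.37 in CR-CD and 5.41, 5.37 and 5.43 in CD-CD. These values overlapped narrowly, lay below background on each array and differed by -0.14 (SE 0.08, limma adjusted p = 0.857). Kcnq1ot1, which silences neighbours of Kcnq1, differed by -0.12 (SE 0.09) with overlapping groups. Meg3 read 5.11, 5.52 and 5.43 in CR-CD and 5.30, 5.49 and 5.13 in CD-CD, with means of 5.35 ± 0.22 and 5.30 ± 0.18 (SD, n = 3 each) and a difference of 0.05 (SE 0.14, 95% interval -0.28 to 0.37, limma adjusted p = 0.999). Rian, from the same domain, lay between 4.69 and 4.89 on all arrays. Airn and Kcnq1ot1 overlap Igf2r and Kcnq1 in the genome, and the sources used here do not give the positions of the probes.

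Among regulators of the cell cycle and transcription, Cdkn1c, an inhibitor of cyclin-dependent kinases, read 5.93, 5.57 and 5.79 in CR-CD and 5.77, 5.79 and 5.88 in CD-CD. The means were 5.76 ± 0.18 and 5.81 ± 0.06 (SD, n = 3 each), a difference of -0.05 (SE 0.10, 95% interval -0.29 to 0.19, limma adjusted p = 0.999). The zinc finger genes Plagl1, Zim1 and Zdbf2 and the trophoblast factor Ascl2 were below background on all arrays, with differences of -0.05, 0.14, 0.13 and 0.03. Ndn, which encodes the growth suppressor necdin, and Nnat, which encodes the membrane protein neuronatin, shared an outlying array. Ndn read 6.48 in CD-CD replicate 2 and 5.73 to 6.03 on the other arrays. Nnat read 6.33 in the same array and 5.51 to 5.91 on the others. A dimmer probe set of Nnat, below background on every array, did not have its highest value there but in CD-CD replicate 1, at 5.29. The 95% intervals of Ndn and Nnat were wide, at -0.57 to 0.30 and -0.50 to 0.46. Their differences were -0.13 and -0.02 with all arrays, and 0.08 and 0.22 without CD-CD replicate 2. The lowest values with 1 array left out were -0.29 for Ndn, without CD-CD replicate 3, and -0.19 for Nnat, without CD-CD replicate 1.

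Peg3 varied far more between arrays of 1 group than between the groups. It encodes a zinc finger protein of the paternal copy, studied for growth and maternal behaviour. The CD-CD arrays read 7.88, 5.89 and 6.30, and the CR-CD arrays 6.73, 6.31 and 6.13. Replicate 1 was the highest array in both groups, and CD-CD replicate 1 exceeded the next CD-CD array by 1.58. The group means were 6.39 ± 0.31 in CR-CD and 6.69 ± 1.05 in CD-CD (SD, n = 3 per group), a difference of -0.30 (SE 0.48, 95% interval -1.44 to 0.84, limma adjusted p = 0.991). Without CD-CD replicate 1 it was 0.30 (limma adjusted p = 0.752), so the sign of the Peg3 difference rests on that array.

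In that array, 35 of the 22180 genes stood above both other CD-CD arrays by at least the gap of Peg3, Peg3 included. Of these, 32 were also highest in replicate 1 within the CR-CD group. The examples that follow were picked after their values were seen and stand for no gene group. Saa2, a serum amyloid A gene, read 13.2 in CD-CD replicate 1 against 9.40 and 8.10 in the other CD-CD arrays. Pdk4, a pyruvate dehydrogenase kinase gene, read 11.0 against 6.65 and 6.83, and Igfbp1, an IGF binding protein gene, 10.8 against 8.65 and 8.44. The part of this array in the level of Peg3 was not tested. No other imprinted gene belonged to the set.

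Usp29, a deubiquitinase gene, starts beside Peg3 in the opposite direction and is also expressed from the paternal copy, yet it lay below background at 4.51 to 4.67 on all 6 arrays, CD-CD replicate 1 (4.57) included. The sequences around both starts are shown because the starts lie so close together. The probe set of Peg3 alone was above background on all 6 arrays and that of Usp29 alone on none. Each gene also had a probe set with several symbols, which was not used. The RefSeq windows run from 250 bases before to 50 bases after the start, on build GRCm38.p6. That of Peg3 is chr7:6730370-6730669 on the minus strand and that of Usp29 chr7:6730333-6730632 on the plus strand, each written 5′ to 3′ on its own strand with the CG pairs, where DNA methylation can occur, in capitals.
Peg3: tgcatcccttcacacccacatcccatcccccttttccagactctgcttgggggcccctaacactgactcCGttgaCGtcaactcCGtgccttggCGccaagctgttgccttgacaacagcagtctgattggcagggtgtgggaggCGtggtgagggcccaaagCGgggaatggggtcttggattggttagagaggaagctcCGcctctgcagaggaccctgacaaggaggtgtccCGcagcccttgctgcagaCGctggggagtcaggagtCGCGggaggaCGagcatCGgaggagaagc
Usp29: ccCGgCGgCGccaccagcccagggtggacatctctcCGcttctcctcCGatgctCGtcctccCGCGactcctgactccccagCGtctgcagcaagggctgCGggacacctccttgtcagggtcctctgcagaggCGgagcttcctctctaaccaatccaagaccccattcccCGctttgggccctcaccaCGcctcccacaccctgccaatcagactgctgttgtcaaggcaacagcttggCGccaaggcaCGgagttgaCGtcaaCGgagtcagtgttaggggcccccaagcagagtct
The windows share 263 bases. The motif CG, which reads the same on both strands, occurs 13 times in the Peg3 window and 17 times in that of Usp29, and 37.9% and 31.4% of all 32851 windows hold at least as many. Over the 50 windows of the 34 listed genes that had any, the median was 13.5 CG pairs, against 7 over all windows. Methylation was not measured in these samples.

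**Figure D3:**
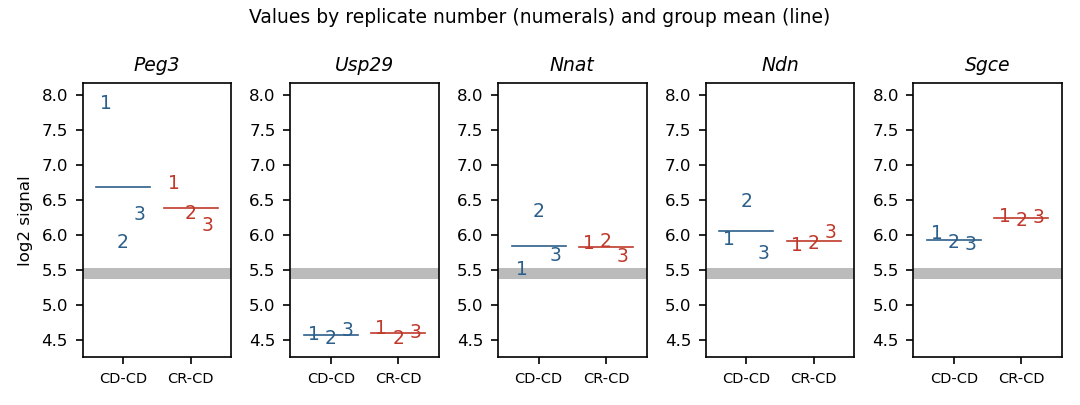
Log2 signal (y axis) of Peg3, Usp29, Nnat, Ndn and Sgce in the CD-CD and CR-CD groups. Numerals are the replicate numbers of single arrays, lines are group means of 3 arrays and the grey band is the 95th percentile of the receptor genes. CD-CD replicate 1 stands apart for Peg3 and CD-CD replicate 2 for Nnat and Ndn, while the groups are separate for Sgce only.

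None of the 6 genes of ubiquitin transfer, translation and RNA processing passed the test, and their differences lay between -0.15 and 0.13. Ube3a, a ubiquitin ligase whose imprinting is known from neurons, read 8.80, 8.68 and 8.69 in CR-CD and 8.75, 8.71 and 8.64 in CD-CD, and its difference of 0.03 had a 95% interval of -0.14 to 0.20. Impact, which restrains the kinase Gcn2 in the control of translation, read 8.01, 7.81 and 7.74 against 8.03, 7.99 and 7.98. The 2 lowest Impact values were CR-CD arrays, but replicate 1 of that group lay among the controls, and the difference was -0.15 (SE 0.09, limma adjusted p = 0.876). Mcts2, a retrogene inside H13, had a difference of 0.13 with a 95% interval of -0.07 to 0.34. Magel2 and Asb4, both partners of ubiquitin ligases, were below background.

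Several enzymes and membrane proteins stayed well expressed. Copg2, a subunit of the COPI vesicle coat, read 8.45, 8.43 and 8.49 in CR-CD and 8.01, 8.51 and 8.14 in CD-CD, and its highest value was the control array CD-CD replicate 2. The difference of Copg2 was 0.24 with a 95% interval of -0.07 to 0.54. With 1 array left out at a time, its lowest value was 0.13 without CD-CD replicate 1 (limma adjusted p = 0.831). Its highest value was 0.38 without CD-CD replicate 2 (limma adjusted p = 0.203). H13, the signal peptide peptidase, read 9.15, 9.13 and 9.13 against 9.33, 9.24 and 9.06 (difference -0.07), and Inpp5f, a phosphoinositide phosphatase, 6.94, 6.90 and 6.99 against 6.70, 6.96 and 7.04 (difference 0.04). Both overlapped between the groups. Ppp1r9a, an actin-binding regulator of protein phosphatase 1, differed by -0.07. Mest, an enzyme-like protein linked to fat cell size, read 5.87, 5.77 and 5.78 in CR-CD (5.81 ± 0.06, SD, n = 3) and 5.65, 5.89 and 5.87 in CD-CD (5.80 ± 0.14, SD, n = 3), a difference of 0.01 (SE 0.09, 95% interval -0.20 to 0.21, limma adjusted p = 0.9998). Gnas, which encodes the stimulatory G protein alpha subunit along with other transcripts, read 5.63, 5.53 and 5.56 in CR-CD (5.57 ± 0.05, SD, n = 3) and 5.56, 5.53 and 5.49 in CD-CD (5.52 ± 0.03, SD, n = 3), just above background. The difference was 0.05 (SE 0.06, 95% interval -0.11 to 0.20, limma adjusted p = 0.984), and which of its transcripts this probe set reads is not given in the sources used here. Dio3, which inactivates thyroid hormone, was below background. Of the transporters and channels, Slc22a18 lay between 8.68 and 9.11 and Kcnq1 between 5.57 and 5.73 with no difference beyond the spread, and the kidney cation transporter Slc22a2 was below background.

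No value of an imprinted gene was written in the longer number format of these data. Most deposited values are exact single-precision numbers, but 428 of 33793 probe sets, 1.27%, hold at least 1 value with more decimals than that, and without such probe sets 0 of 21878 genes passed the adjusted p of limma, where 329 of 22180 had passed with them. Of the 39 probe sets annotated to 1 imprinted gene alone, 0 held such a value, nor did any of the 18 probe sets annotated to an imprinted gene with other symbols. The sources used here do not describe the difference in format.

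Genes that act on imprinted genes were examined as lists. Of 10 genes that maintain imprints, 1 rose and 0 fell in CR-CD, where 0.784% of all genes rose and 0.699% fell. Dppa3, which protects imprints from demethylation after fertilization, rose from 5.07, 5.16 and 4.88 in CD-CD, below background, to 6.29, 6.47 and 6.48 in CR-CD. The difference was 1.38 (SE 0.10, limma adjusted p = 0.00035). The longer format was present in 3 of 3 CR-CD arrays and 0 of 3 CD-CD arrays for Dppa3. The corepressor Trim28 and its partner Setdb1, a histone methyltransferase, did not pass. Their groups did not overlap. Of the 10 genes, 1 was higher and 2 were lower in CR-CD without overlap, where 11.4% of all genes had no overlap. Trim28 read 7.93, 7.96 and 7.81 in CR-CD against 8.08, 8.09 and 8.14 in CD-CD (difference -0.21, limma adjusted p = 0.667), and Setdb1 7.01, 6.99 and 6.82 against 7.14, 7.07 and 7.24 (difference -0.21, limma adjusted p = 0.758). The maintenance methyltransferase gene Dnmt1 differed by 0.12 and Zfp57, which recognizes imprinted regions, by 0.10.

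Of 5 fetal liver genes and their repressors, 0 rose and 1 fell, against 0.784% and 0.699% of all genes. Zbtb20, which represses the fetal gene Afp in adult liver, fell from 10.31, 10.37 and 10.35 in CD-CD to 9.03, 8.92 and 8.84 in CR-CD. The difference was -1.41 (SE 0.07, limma adjusted p = 7.58e-05), and the longer format was present in 3 of 3 CD-CD arrays and 0 of 3 CR-CD arrays. Zhx2, a repressor of H19 and Afp after birth in mice, read 7.76, 7.46 and 7.44 against 7.96, 7.77 and 7.86, a difference of -0.31 that did not pass (limma adjusted p = 0.683). The groups of Zhx2 lay narrowly apart, and 11.4% of all genes had no overlap. Afp itself stayed near background, at 5.33 to 5.54 in CR-CD and 5.34 to 5.62 in CD-CD, and its difference was -0.04 with a 95% interval of -0.28 to 0.20. Gpc3, another fetal gene, had a difference of 0.18 with a 95% interval of -0.15 to 0.50.

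Among 8 measured partners of Igf2 and Igf2r in the IGF system, 0 rose and 1 fell, where 0.784% of all genes rose and 0.699% fell. The gene that fell was Insr, the insulin receptor, which fell by 1.44 (SE 0.07, limma adjusted p = 5.81e-05) and had the longer format in 3 of 3 CR-CD arrays and 1 of 3 CD-CD arrays. Igf1 differed by -0.21 (SE 0.14), and Igf1r by 0.04. Igfbp1 was high in replicate 1 of both groups, reading 9.08 there in CR-CD and 10.8 there in CD-CD, and its difference of -1.38 had an SE of 0.72 (limma adjusted p = 0.847). With replicate numbers as a block the same difference had an SE of 0.13 and an adjusted p from limma of 0.0046, so the call of Igfbp1 depends on whether the numbers pair the arrays. No Igfbp1 value was in the longer format. Of 25 measured imprinted genes outside the main list, 0 rose and 0 fell, with a median difference of 0.05, against 0.784% and 0.699% of all genes. Whether these genes are imprinted in adult liver was not measured. Above background on all arrays were 18 of the 25, where 54.2% of all genes were. The groups did not overlap for Cd81 and Pon2 of these 25, where 11.4% of all genes had no overlap. Slc38a4, an amino acid transporter, differed by -0.05. Cd81, a tetraspanin, read 12.57, 12.57 and 12.70 in CR-CD against 12.19, 12.50 and 12.35 in CD-CD (difference 0.26, limma adjusted p = 0.719). Pon2, a paraoxonase, had a lower mean in CR-CD (difference -0.15, limma adjusted p = 0.847).

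**Figure D4:**
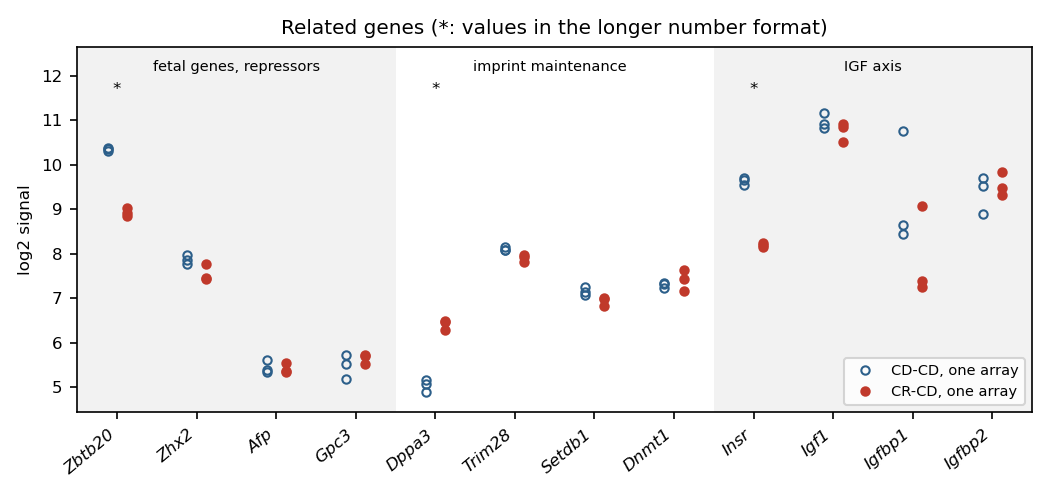
Log2 signal (y axis) of 12 related genes in the 6 arrays, filled for CR-CD and open for CD-CD, in 3 lists. Stars mark genes with values in the longer number format, Zbtb20, Dppa3 and Insr, which are also the only genes shown that passed the adjusted p without the replicate block.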

How the data were processed

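Liver RNA was measured on Affymetrix mouse arrays, 3 for CR-CD and 3 for CD-CD. The authors normalized the arrays in GeneSpring, and what they deposited is a log2 signal for each of 33793 probe sets, between 3.63 and 13.9. How probes were summarized, and on which genome build, is not given in the sources used here. Symbols came from the platform annotation, in which 23521 probe sets had 1 symbol, 1820 several and 8452 none. Each of 22180 genes was represented by its probe set with the highest mean over 6 arrays.

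limma 3.58.1 (R 4.3.3; lmFit, eBayes; residual df 4, prior df 2.98) compared the groups, and p was adjusted by Benjamini-Hochberg over all genes with a threshold of 0.05. It was tested on simulated data. The number of arrays, 3 per group, limits precision. The imprinted genes, lists, tests and alternatives were chosen with earlier results of these data known. Every measured gene of the list was to be named, with full statistics for any past a threshold, without overlap, with longer-format values or among the best known growth genes. Alternatives were a plain t-test as in the methods, robust variances with a trend, quantile normalization, centring of arrays, only genes above the 40th percentile, averaging over probe sets, testing every probe set, omitting longer-format probe sets, using the replicate number as a block, and omitting each array. Background came from genes with symbols starting Olfr, Vmn1r or Vmn2r. The labels do not say what a shared replicate number means. Arrays with the same number deviated together (correlations over genes of 0.407, 0.208 and 0.201), all above 0.1. The numbers were therefore used as a block in an alternative fit, and the main fit left the arrays unpaired. Of the unlike pairs, CR-CD 3 with CD-CD 2 correlated at 0.261 and CR-CD 2 with CD-CD 3 at 0.107, so only replicate 1 stood apart, and the hint comes from the data, not the labels. Marker lists of hepatocytes, macrophages, endothelial, stellate or fibroblast, bile duct, adipocyte and pancreas cells had 0 genes past the adjusted p of limma. Promoter windows came from RefSeq.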

Additional observations from a re-analysis of the deposited data

How the results depend on the processing

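No imprinted gene passed the adjusted p of limma, or of the methods' t-test, under any alternative run. The replicate block changed no call among them (adjusted p of Sgce 0.264) and, of the genes in the other lists, only that of Igfbp1 (adjusted p 0.0046 with the block, 0.847 without), and over all genes 339 passed with the replicate block against 329 without it. Leaving out probe sets with longer-format values left 0 of 21878 genes. Imprinted genes above background fell from 21 to 9 at the 99th percentile of the receptor genes. With the filter at the 40th percentile the maternal median difference was -0.044 and the paternal median difference -0.048. That filter kept 9 of 16 maternally and 11 of 18 paternally expressed genes. The difference of Mest was -0.0064 after quantile normalization. With single arrays left out, 290 to 355 genes passed in all. The paternal median then ranged from -0.0711 to 0.0200 and the maternal median from -0.0154 to 0.0244. Igf2 ranged from -0.123 to 0.0764, Meg3 from -0.0400 to 0.171, Cdkn1c from -0.134 to 0.0483, Mest from -0.0725 to 0.0489 and Peg3 from -0.70 to 0.30. Igf2r ranged from -0.146 to -0.0305, Dlk1 from -0.220 to -0.0837 and Gnas from 0.0203 to 0.0690, each with its sign kept. The first 5 genes changed sign: Igf2 without CR-CD replicate 1, Cdkn1c without CR-CD replicate 2, Peg3 without CD-CD replicate 1, Meg3 without CR-CD replicate 2 or CD-CD replicate 3, and Mest without replicate 1 of either group. The cause was not tested.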
